A study of Homo sapiens with 6 samples.

Results

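The genes described here encode the machinery that licenses replication origins, unwinds DNA and copies it. They were chosen by symbol, from patterns and names that cover 51 symbols of origin recognition, licensing, helicase, polymerase, clamp, ligase and nucleotide reduction genes. The probe annotation used here named 22 of the 51 symbols, out of 14884 genes it named in all. These are CDC6, CDT1, MCM2 to MCM10, CDC7, DBF4, CDC45, GINS1 to GINS4, PCNA, FEN1, RRM1 and RRM2. The other 29 symbols, which include every origin recognition complex, DNA polymerase, primase, RFC and RPA gene of the rule, as well as GMNN and LIG1, were not analysed here. The set is therefore one of licensing, helicase and firing genes with a few fork and nucleotide genes, and holds no polymerase.

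The RNA was hybridised to 6 Affymetrix Human Gene 2.0 ST arrays, whose probes are spread over each transcript, in RPMI8226, KMS11 and U266. These are established lines of malignant plasma cells from multiple myeloma. Each line gave 1 array after transfection with 100 nM miR-10a mimic, a synthetic RNA that acts as the microRNA, and 1 array after 100 nM of a scrambled control RNA. All cells received the HiPerFect transfection reagent, were grown in RPMI1640 with heat-inactivated serum and were collected after 48 h. Nothing in the labels separates cultures of a line, and each line and treatment rests on a single array.

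In a cell that prepares to divide, CDC6 and CDT1 help the origin recognition complex to load the ring of MCM2 to MCM7 onto DNA. The kinase CDC7 with its activator DBF4 then phosphorylates the ring, and CDC45 and the GINS complex join it to form the working helicase. PCNA, a clamp that slides on DNA, tethers polymerases and the flap nuclease FEN1, and ribonucleotide reductase, built from RRM1 and RRM2, makes the deoxynucleotides. Transcription of many of these genes is known to rise before S phase through E2F factors, which the retinoblastoma protein RB1 holds back.

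The mature miR-10a-5p sequence is shown because it is the microRNA that the mimic is named for. The labels do not give the arm. It is taken from RefSeq (GRCh38.p14, chr17:48579904-48579926, minus strand), with the seed, bases 2 to 8, in capitals.
hsa-miR-10a-5p: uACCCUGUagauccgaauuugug

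Promoter sequences were set beside the values because E2F sites are a known feature of these genes. RefSeq promoter windows of 300 bases, 250 before and 50 after an annotated start, were used for 19 of the 22 genes. CDC6, CDT1, MCM2, MCM3, MCM6, MCM7, MCM8, CDC7, GINS1, GINS2, GINS3 and PCNA, 12 of the 19, held an exact E2F-type octamer on either strand in at least 1 window, or 63.2%. The octamers searched were TTTCCCGC, TTTCGCGC, TTTGCCGC and TTTGGCGC, and a palindromic site counts on each strand. Of all genes with a window 3.99% held one, and over the tested genes 7.11%. At least 2 octamers in a window were found in MCM2, MCM3, MCM6, MCM7 and CDC7, 5 of 19, against 0.404% of tested genes. No exact match lay in the windows of MCM9, MCM10, DBF4, CDC45, FEN1, RRM1 or RRM2. GINS4, MCM4 and MCM5 had no window.

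The stretches below, each 5′ to 3′ on the gene's own strand and ending before the annotated start, show 5 members that differ in how they varied between the lines. Capitals mark the octamers. MCM6 (chr2:135876514-135876603, minus strand) carries a pair of TTTGGCGC words, each overlapping TTTCGCGC on the opposite strand. The stretches of GINS2 (chr16:85688955-85689054, minus strand), CDT1 (chr16:88803689-88803788, plus strand), CDC7 (chr1:91501012-91501111, plus strand) and PCNA (chr20:5126623-5126722, minus strand) carry TTTCCCGC, which reads GCGGGAAA where it lies on the opposite strand. Coordinates are of GRCh38.p14.
GINS2: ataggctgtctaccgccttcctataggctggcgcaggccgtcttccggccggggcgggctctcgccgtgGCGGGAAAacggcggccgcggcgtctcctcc
CDT1: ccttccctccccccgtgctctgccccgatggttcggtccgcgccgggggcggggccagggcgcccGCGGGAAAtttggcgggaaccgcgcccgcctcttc
CDC7: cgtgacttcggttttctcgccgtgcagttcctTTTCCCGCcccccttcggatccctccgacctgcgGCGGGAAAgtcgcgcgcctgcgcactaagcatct
MCM6: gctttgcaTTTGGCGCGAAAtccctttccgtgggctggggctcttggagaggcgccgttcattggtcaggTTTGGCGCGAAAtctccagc
PCNA: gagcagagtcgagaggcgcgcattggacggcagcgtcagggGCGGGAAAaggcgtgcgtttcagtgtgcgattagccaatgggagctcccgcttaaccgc

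**Figure D1:**
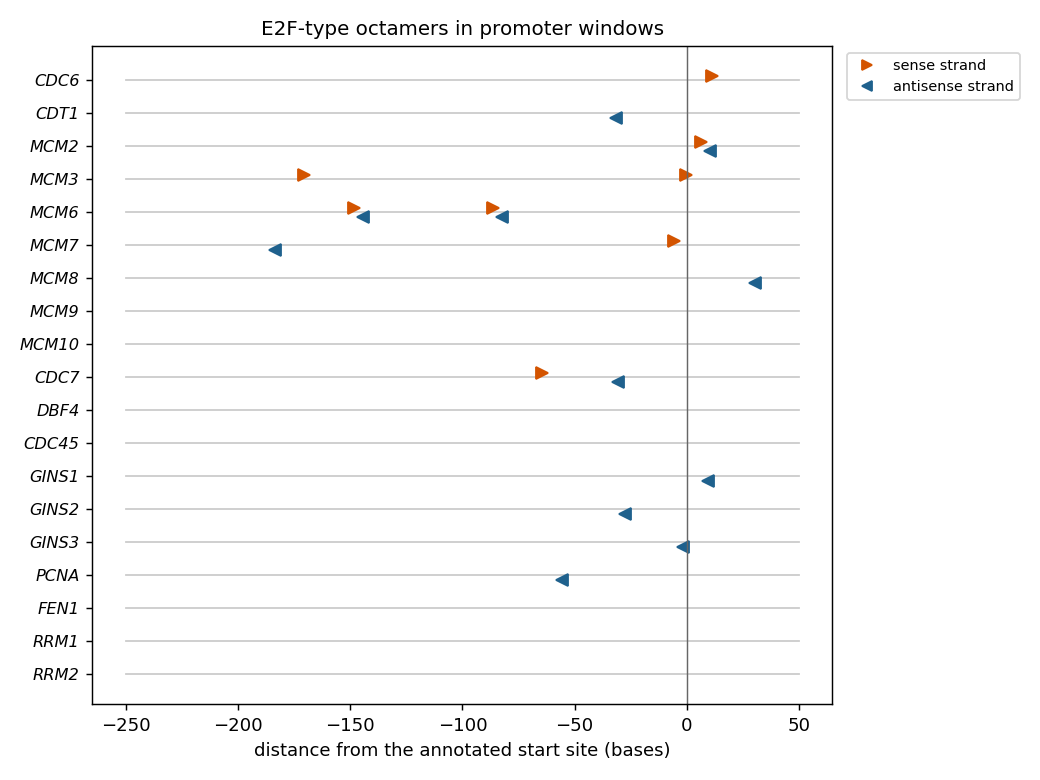
Positions of exact E2F-type octamers (triangles, pointing right on the sense strand and left on the antisense strand) along the promoter windows of 19 DNA replication genes, with the distance from the annotated start site in bases on the x axis. For genes with several windows the one with most octamers is drawn; 12 genes hold an octamer and MCM6 holds 4.

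All values are log2 expression values as deposited, and all differences are differences of log2 values, so that 1 unit is 2-fold. All 22 genes lay above the filter on low values, a mean of 4.70 log2 units over the 6 arrays, which left 7442 genes for testing. Array medians lay between 3.61 and 3.66. Correlations across tested genes were 0.992 to 0.993 between the 2 treatments of a line but 0.715 to 0.779 between lines. Of 9 plasma cell markers listed, 6 were named on the array, and they were not even across lines. The transcription factor genes XBP1 and IRF4 lay at 9.34 to 10.89 in all 6 arrays, and POU2AF1 at 4.93 to 5.14. SDC1, the gene of the surface antigen CD138, was at 7.16 and 7.30 in RPMI8226, 5.72 and 5.52 in KMS11 and 9.48 and 9.49 in U266 (mimic, then control). MZB1 was at 9.96 and 10.03 in RPMI8226, 8.06 and 7.92 in KMS11 and 6.11 and 6.18 in U266. The mean log2 value of the plasma cell list was 8.67 and 8.70 in RPMI8226, 7.40 and 7.32 in KMS11 and 7.36 and 7.44 in U266. CD38, a plasma cell surface antigen gene, stood at 9.90 with mimic and 9.99 with control in RPMI8226, but at 3.80 to 4.92 in the other 4 arrays. Of the 5 myeloid markers listed, 4 were named on the array. CD14 and LYZ stayed at 2.31 to 2.83 and CSF1R at 3.89 to 4.24. CD68 was at 8.02 with mimic and 8.35 with control in RPMI8226 and at 4.46 to 5.34 elsewhere. The mean log2 value of the myeloid list was 4.28 and 4.46 in RPMI8226, 3.35 and 3.41 in KMS11, and 3.55 and 3.61 in U266 (mimic, then control). Of 5 T cell markers 2 were named, and of 5 stromal markers 1. CD2 lay at 3.60 to 3.95 and the stromal gene DCN at 1.98 to 2.26. CD8A was at 5.59 with mimic and 4.90 with control in RPMI8226 and at 4.39 to 4.85 elsewhere. CD68 was higher in RPMI8226 than in the other lines, while the genes below did not share 1 order of lines. Any part of CD68 in those results was not tested.

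The first comparison asked whether an excess of miR-10a changed the replication genes. No replication gene passed the test with the mimic. With limma, blocking on the line, 0 of the 22 passed an adjusted p of 0.05, against 0% of all 7442 tested genes, and the smallest adjusted p among the 22 was 0.889. At an unadjusted p under 0.05 there was 1, GINS3, or 4.55% of the 22, against 5.42% of all tested genes. In mean change 13 were above 0 and 9 below, with a median of 0.01 log2 units, against -0.0029 over all tested genes. The line medians of the 22 were 0.04 in RPMI8226, 0.05 in KMS11 and -0.02 in U266, and those of all tested genes were 0.01, -0.0011 and -0.02.

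The intervals were narrow. The 95% confidence interval of the mean change, uncorrected for testing many genes, lay within 1.5-fold in either direction for all 22 genes, as it did for 97.6% of tested genes. Its widest bound over the 22 was 0.39 log2 units, or 1.31-fold, for MCM9. Whether the mimic was taken up cannot be read from these genes, and array summaries can compress changes of weakly expressed genes.

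GINS3, a GINS subunit gene, had the largest mean change. It stood at 8.13 with mimic and 7.87 with control in RPMI8226, 7.84 and 7.62 in KMS11, and 7.22 and 7.09 in U266. The mimic array was the higher of the pair in each line, while the mimic and control ranges overlapped across lines. Its change was 0.20 ± 0.07 (SD of 3 lines), or 1.15-fold, with limma's adjusted p = 0.889.

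GINS4, another GINS subunit gene, had the most even change. The mimic exceeded the control by 0.13 in RPMI8226, KMS11 and U266 alike, a mean of 0.13 ± 0.0028 (SD of 3 lines; limma's adjusted p = 0.911). Its values were 5.75 with mimic and 5.62 with control in RPMI8226, 6.69 and 6.57 in KMS11, and 6.20 and 6.08 in U266. A second GINS4 probe set, with a mean of 2.55, lay below the filter and was not tested. It read 2.64 with mimic and 2.21 with control in RPMI8226, 2.63 and 2.56 in KMS11, and 2.55 and 2.73 in U266, where the sign turned.

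MCM7 and CDT1 also had the higher value with mimic in every line, by 0.11 ± 0.10 and 0.08 ± 0.04 (SD of 3 lines; limma's adjusted p = 0.917 each). MCM4 alone had the lower value in every line, by -0.07 ± 0.05 (limma's adjusted p = 0.92). Together 4 of 22 genes, or 18.2%, were higher in all 3 lines and 1, or 4.55%, was lower in all 3, against 12.7% and 13.8% of all tested genes. The other 17 genes changed sign between lines.

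Within single lines, each a pair of arrays without replicates, few members moved by 1.2-fold. In KMS11 only GINS2 was at least 1.2-fold higher with mimic, at 7.04 against 6.73 with control, which is 1 of 22, or 4.55%, where 6.44% of tested genes were, and 0 were as much lower, against 5.94%. In U266 only MCM9 was at least 1.2-fold lower, at 5.73 with mimic against 6.16 with control, where 7.09% of tested genes were, and 0 were as much higher, against 5.91%. RPMI8226 had 0 such members in either direction, against 7.22% of tested genes higher and 6.05% lower. Its widest changes were 0.26 for GINS3 and -0.17 for DBF4, while the widest opposite changes of KMS11 and U266 were -0.18 for MCM8 and 0.17 for CDC45. When the change of each line was tested against that of the other lines, 0 of the 22 passed for RPMI8226, KMS11 or U266, against 0% of tested genes in each. For MCM9 in U266 that difference was -0.48, with limma's adjusted p = 0.736.

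**Figure D2:**
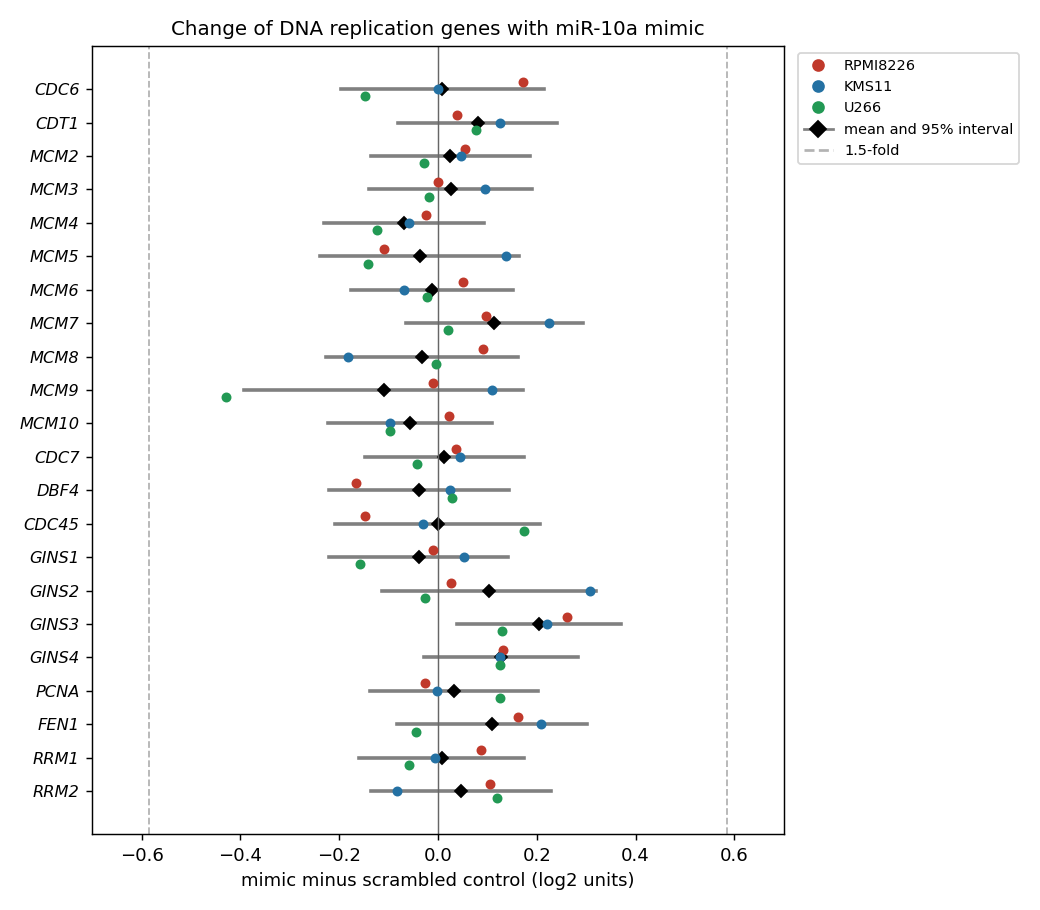
Mimic minus scrambled control for the 22 genes in log2 units (x axis). Coloured points are the 3 lines, black diamonds the mean over lines and grey bars its 95% confidence interval in limma; every bar lies inside the dashed lines at 1.5-fold, and GINS3 has the largest mean, 0.20.

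The second comparison asked how the levels differed between the lines. Each line was represented by its mimic and its control array, which for the 22 genes differed by at most 0.43 log2 units. By the F test over lines, 20 of 22 genes differed (adjusted p under 0.05 in limma), or 90.9%, where 82.4% of all tested genes did. The exceptions were GINS1 and MCM5. The range of the 3 line means had a median of 0.84 over the 22 and of 0.77 over all tested genes. A range of at least 2-fold was reached by 6 genes, CDT1, MCM8, MCM9, CDC45, GINS2 and RRM2, or 27.3%, against 36.4% of tested genes. The array pairs of the 3 lines did not overlap for 15 genes, or 68.2%, against 61.9%. MCM9 is counted among the 20, the 6 and the 15. Its RPMI8226 values lay below the filter level, so the size of its range is uncertain. In such bulk RNA a smaller share of cells in S phase and less RNA per cell cannot be told apart.

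RPMI8226 was the lowest line more often than it was the highest. It was lower than both KMS11 and U266 for CDT1, MCM8, MCM9, DBF4, CDC45, GINS2, GINS4, RRM1 and RRM2, which is 9 of 22, or 40.9%, against 21.7% of tested genes. MCM9 is among these 9 with RPMI8226 values below the filter level, and 8 remain without it. RPMI8226 was higher than both for MCM3, GINS3 and PCNA, or 13.6%, against 17.6%. KMS11 was the highest line for 6 genes (27.3%, against 19.2%) and the lowest for 2 (9.09%, against 14.4%). U266 was the highest for 5 (22.7%, against 18.6%) and the lowest for 3 (13.6%, against 18.9%). These counts take an adjusted p under 0.05 in both pairwise contrasts of limma. Some of the calls behind them were lost under alternatives given below. For KMS11 these were calls of MCM10, DBF4, RRM1 and MCM2, and for U266 calls of MCM4 and FEN1. For RPMI8226 they were calls of GINS3 and PCNA as highest and of MCM9 as lowest.

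Pair by pair, RPMI8226 was higher than KMS11 for 5 genes and lower for 10 (22.7% and 45.5%, against 29.4% and 35.6% of tested genes). Against U266 it was higher for 5 and lower for 12 (22.7% and 54.5%, against 32.4% and 35.1%). KMS11 was higher than U266 for 9 and lower for 7 (40.9% and 31.8%, against 34% and 29.8%). These 16 calls numbered 10 without the KMS11 control array or the U266 mimic array, and 11 with no filter. Differences of at least 2-fold were all deficits of RPMI8226. They were CDT1, MCM8, CDC45 and GINS2 against KMS11 and MCM8, MCM9, GINS2 and RRM2 against U266, each 4 of 22 or 18.2%, where 12.6% and 11.9% of tested genes were. For MCM9, whose RPMI8226 values lay below the filter level, the size is uncertain. In the opposite direction there were 0 of 22, against 7.91% of tested genes over KMS11 and 10.3% over U266. Between KMS11 and U266 there were 0 of 22 either way, against 10.2% of tested genes higher and 8.17% lower in KMS11. The median difference over the 22 was -0.10 for RPMI8226 minus KMS11, -0.36 for RPMI8226 minus U266 and 0.0093 for KMS11 minus U266, and over all tested genes it was -0.04, -0.0034 and 0.04.

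**Figure D3:**
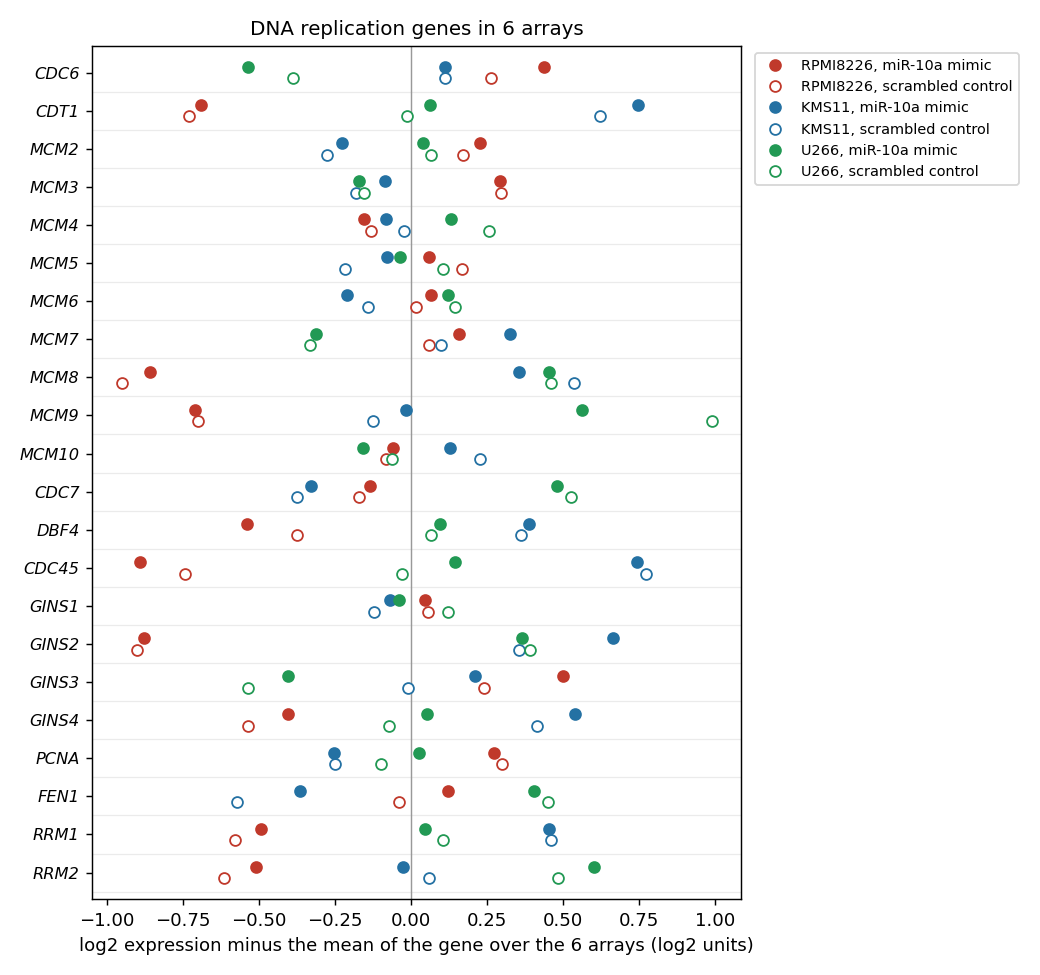
Log2 expression of the 22 genes in each array, minus the gene's mean over the 6 arrays (x axis, log2 units). Filled circles are mimic arrays, open circles scrambled-control arrays and colours the lines; both RPMI8226 arrays lie left of the other 4 for CDT1, CDC45, GINS2, GINS4, MCM8, MCM9, DBF4, RRM1 and RRM2.

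Both licensing genes were higher in KMS11 than in U266, and the place of RPMI8226 differed between them. CDT1, which brings the MCM ring to origins, stood at 6.995 with mimic and 6.96 with control in RPMI8226, 8.43 and 8.31 in KMS11, and 7.75 and 7.67 in U266. The 3 lines did not overlap, and RPMI8226 was lowest and KMS11 highest. RPMI8226 lay 1.40 ± 0.08 log2 units (SE) below KMS11, or 2.63-fold, with limma's adjusted p = 4.29e-05, and 0.74 ± 0.08 below U266 (adjusted p = 0.000425). KMS11 exceeded U266 by 0.66 ± 0.08 (SE; limma's adjusted p = 0.000777). CDC6, its partner in loading, stood at 7.99 and 7.82 in RPMI8226, 7.67 and 7.67 in KMS11, and 7.02 and 7.17 in U266, again mimic before control. Here U266 was lowest. RPMI8226 exceeded U266 by 0.81 ± 0.10 (SE; limma's adjusted p = 0.000795) and KMS11 exceeded U266 by 0.57 ± 0.10 (limma's adjusted p = 0.00372). RPMI8226 minus KMS11 was 0.24 for CDC6 and did not pass (limma's adjusted p = 0.0852), but passed under the stricter filter (0.0348) and a variance trend (0.0342).

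MCM2 to MCM7, the subunits of the helicase ring, varied little. Their ranges of line means ran from 0.26 to 0.53 log2 units, and 6 of 6 lay below the median range of all tested genes, 0.77. MCM5 had the narrowest range. It stood at 8.28 with mimic and 8.39 with control in RPMI8226, 8.14 and 8.01 in KMS11, and 8.19 and 8.33 in U266. These arrays overlapped between RPMI8226 and U266, and the F test did not pass (limma's adjusted p = 0.11). RPMI8226 minus KMS11 was 0.26, with a 95% confidence interval of 0.01 to 0.51 and limma's adjusted p = 0.0618. It passed under the stricter filter (0.0222), quantile normalization (0.0446), a variance trend (0.0126), no treatment term (0.0448) and without the KMS11 mimic array (0.039). The interval was -0.17 to 0.32 for RPMI8226 minus U266 and -0.43 to 0.06 for KMS11 minus U266.

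MCM7 had the widest range of the ring, at 8.83 and 8.73 in RPMI8226, 8.997 and 8.77 in KMS11 and 8.36 and 8.34 in U266 (mimic, then control). Both U266 arrays lay below the other 4. RPMI8226 exceeded U266 by 0.43 ± 0.09 log2 units (SE; limma's adjusted p = 0.00618) and KMS11 exceeded U266 by 0.53 ± 0.09, or 1.45-fold (limma's adjusted p = 0.00278).

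MCM3 was highest in RPMI8226, 9.74 in both arrays, against 9.36 and 9.27 in KMS11 and 9.28 and 9.30 in U266. The RPMI8226 arrays lay above the other 4, by 0.43 ± 0.08 over KMS11 and 0.46 ± 0.08 over U266 (SE; limma's adjusted p = 0.00482 and 0.00345). MCM2 stood at 8.74 and 8.68 in RPMI8226, 8.28 and 8.24 in KMS11 and 8.55 and 8.58 in U266, with KMS11 lowest. MCM4 had 8.19 and 8.22 in RPMI8226, 8.27 and 8.33 in KMS11 and 8.48 and 8.60 in U266, with U266 highest. MCM6 had 9.16 and 9.11 in RPMI8226, 8.88 and 8.95 in KMS11 and 9.21 and 9.24 in U266, and only its KMS11 to U266 difference passed. RPMI8226 minus KMS11 for MCM6, 0.22 (limma's adjusted p = 0.0591), passed under 4 alternatives (0.0055 to 0.049). The ring subunits thus ordered the lines differently, and in no contrast did more than 3 of the 6 pass in 1 direction.

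Small differences within the ring did not hold under every alternative. For KMS11 minus U266, MCM2 gave -0.30, MCM4 -0.25 and MCM6 -0.31, with limma's adjusted p of 0.0172, 0.0383 and 0.0177. With 1 array left out at a time, MCM2 and MCM6 lost the call without any of the 4 KMS11 or U266 arrays (adjusted p up to 0.118 and 0.125) and MCM4 lost it without any of the 6 (up to 0.221). With all arrays but no filter on low values, MCM2, MCM4 and MCM6 also lost it (0.0539, 0.106 and 0.0542), and MCM4 did with array medians centred (0.0652). RPMI8226 minus U266 for MCM4, -0.34 (limma's adjusted p = 0.0113), lost it without the control array of RPMI8226 (0.0659) or of U266 (0.0838).

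**Figure D4:**
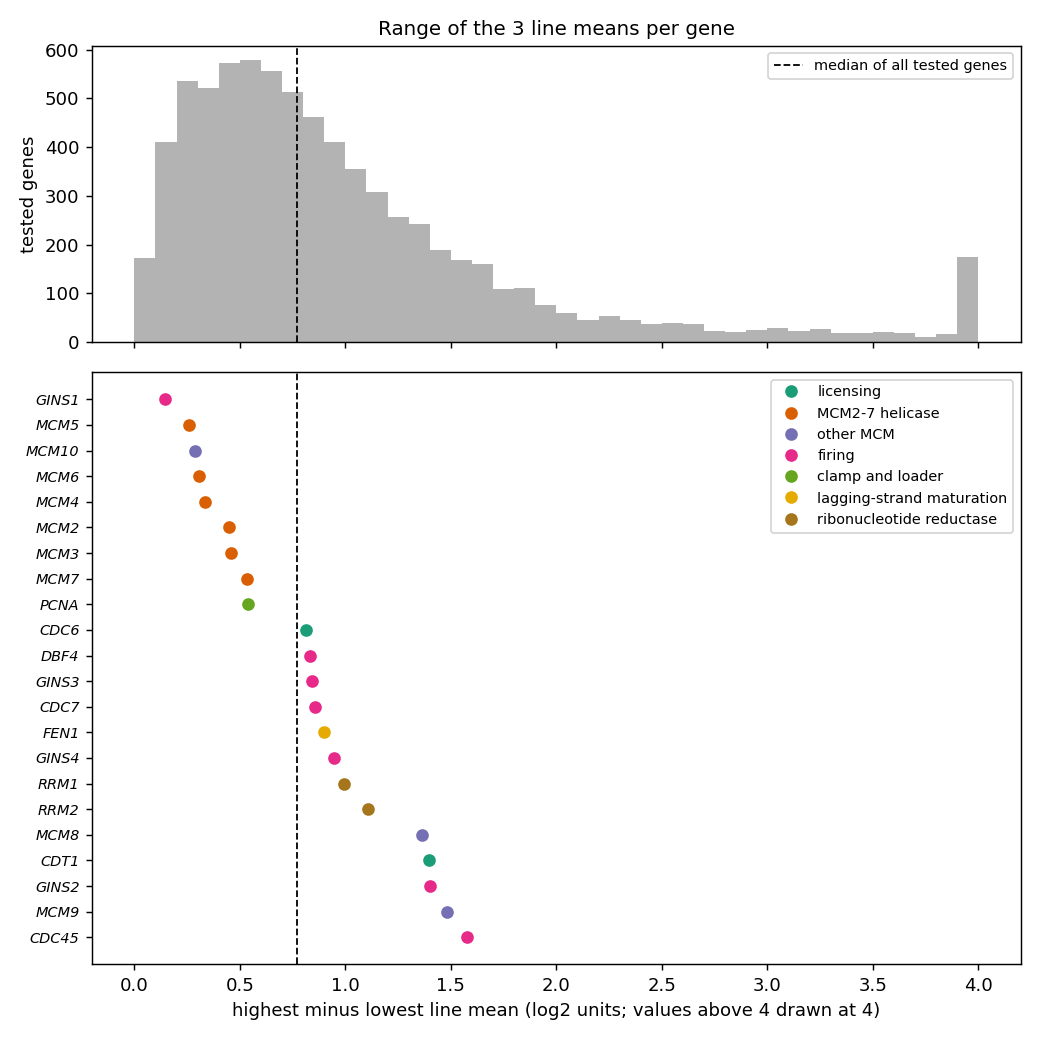
Highest minus lowest of the 3 line means, in log2 units on the x axis, for all 7442 tested genes (upper panel, histogram) and for the 22 replication genes, coloured by role (lower panel). The dashed line is the median of all tested genes, 0.77; the 6 genes of the MCM2 to MCM7 ring lie between 0.26 and 0.53, and CDC45 lies at 1.58.

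The other MCM genes varied more, apart from MCM10. MCM8 and MCM9 encode partners of a second helicase, known for work in homologous recombination. MCM8 stood at 9.17 with mimic and 9.08 with control in RPMI8226, 10.39 and 10.57 in KMS11, and 10.49 and 10.50 in U266. Both RPMI8226 arrays lay far below the other 4, with a difference of -1.35 ± 0.10 from KMS11 and -1.36 ± 0.10 from U266 (SE; limma's adjusted p = 9.43e-05 and 7.71e-05). KMS11 minus U266 was -0.01, with a 95% confidence interval of -0.25 to 0.23.

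MCM9 stood at 4.46 with mimic and 4.47 with control in RPMI8226, 5.15 and 5.05 in KMS11, and 5.73 and 6.16 in U266. The lines did not overlap, but both RPMI8226 arrays lay below the filter level of 4.70, and MCM9 passed that filter only through KMS11 and U266. Without detection calls the RPMI8226 level may be background, so the differences of MCM9 are given as fitted and no size of fold is read from them. The counts of differences of at least 2-fold above do include MCM9. RPMI8226 minus U266 was -1.48 ± 0.14 log2 units (SE; limma's adjusted p = 0.00025). Against KMS11 the difference was -0.63 (limma's adjusted p = 0.00869), and this call was lost without the RPMI8226 control array (0.0718) or the KMS11 mimic array (0.0566). MCM10, which binds the assembled helicase at firing, was 8.52 and 8.49 in RPMI8226, 8.70 and 8.80 in KMS11 and 8.42 and 8.51 in U266. KMS11 was highest, by 0.25 over RPMI8226 and 0.29 over U266 (limma's adjusted p = 0.0393 and 0.0241). The first of these calls was lost when any of the 6 arrays was left out, the second without any of the 4 KMS11 or U266 arrays (adjusted p up to 0.202 and 0.143). Both were also lost with no filter (0.106 and 0.0694), and the first after quantile normalization (0.0566).

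Among the firing factors, CDC45 had the widest range of all 22 genes. It stood at 6.01 with mimic and 6.16 with control in RPMI8226, 7.65 and 7.68 in KMS11, and 7.05 and 6.87 in U266. The lines did not overlap, with RPMI8226 lowest and KMS11 highest. RPMI8226 was lower than KMS11 by 1.58 ± 0.10 log2 units (SE), or 2.98-fold (limma's adjusted p = 6.84e-05), and lower than U266 by 0.87 ± 0.10, or 1.83-fold (limma's adjusted p = 0.0006). KMS11 exceeded U266 by 0.70 ± 0.10 (limma's adjusted p = 0.00169).

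The 4 GINS genes, whose products form 1 complex, did not follow 1 order. GINS2 stood at 5.50 with mimic and 5.48 with control in RPMI8226, 7.04 and 6.73 in KMS11, and 6.75 and 6.77 in U266. RPMI8226 lay below the other 4 arrays, by 1.40 ± 0.11 against KMS11, or 2.64-fold, and by 1.27 ± 0.11 against U266, or 2.41-fold (SE; limma's adjusted p = 0.000121 and 0.000159). GINS4, whose values are given above, was also lowest in RPMI8226, by 0.95 ± 0.08 against KMS11 and 0.46 ± 0.08 against U266 (SE; limma's adjusted p = 0.000153 and 0.00272).

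GINS3 was lowest in U266, with RPMI8226 higher by 0.84 ± 0.08 and KMS11 higher by 0.57 ± 0.08 (SE; limma's adjusted p = 0.000288 and 0.0016). RPMI8226 exceeded KMS11 by 0.27 (limma's adjusted p = 0.0297), a call lost without either RPMI8226 array or either KMS11 array (adjusted p up to 0.146). It was also lost with array medians centred (0.062), with no filter (0.0843) and with no treatment term (0.0902). That is 1 of the 3 genes counted above as highest in RPMI8226. GINS1 stood at 8.01 and 8.02 in RPMI8226, 7.89 and 7.84 in KMS11 and 7.92 and 8.08 in U266. It had the narrowest range of the 22, 0.15, and its F test did not pass (limma's adjusted p = 0.286). The 95% confidence interval of RPMI8226 minus KMS11 was -0.07 to 0.37.

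CDC7 and DBF4, the kinase and its activator, were highest in different lines. CDC7 stood at 7.002 with mimic and 6.97 with control in RPMI8226, 6.81 and 6.76 in KMS11, and 7.62 and 7.66 in U266. U266 lay above the other 4 arrays, with RPMI8226 minus U266 at -0.66 ± 0.08 and KMS11 minus U266 at -0.85 ± 0.08 (SE; limma's adjusted p = 0.000701 and 0.000287). RPMI8226 minus KMS11 was 0.20 for CDC7 and did not pass (limma's adjusted p = 0.0729), but passed under the stricter filter (0.0279). DBF4 stood at 7.19 and 7.35 in RPMI8226, 8.11 and 8.09 in KMS11 and 7.82 and 7.79 in U266. RPMI8226 was lowest, by 0.83 ± 0.09 against KMS11 and 0.54 ± 0.09 against U266 (SE; limma's adjusted p = 0.000456 and 0.00269). KMS11 exceeded U266 by 0.29 (limma's adjusted p = 0.0303), a call lost without any of the 4 KMS11 or U266 arrays (up to 0.174) and with no filter (0.0775).

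PCNA and FEN1, which meet on the lagging strand, also differed in order. PCNA was 10.16 with mimic and 10.18 with control in RPMI8226, 9.63 and 9.63 in KMS11, and 9.91 and 9.78 in U266. KMS11 minus U266 was -0.22 for PCNA and did not pass (limma's adjusted p = 0.0678). It passed under the stricter filter (0.0253) and a variance trend (0.00384). RPMI8226 was highest, by 0.54 ± 0.08 over KMS11 (SE; limma's adjusted p = 0.00212). Its difference of 0.32 from U266 (limma's adjusted p = 0.0159) was lost without the control array of RPMI8226 (0.0911) or of U266 (0.127). FEN1 was 7.59 and 7.43 in RPMI8226, 7.10 and 6.89 in KMS11 and 7.87 and 7.92 in U266. KMS11 was lowest, 0.90 ± 0.10 below U266 (SE; limma's adjusted p = 0.000463) and 0.51 ± 0.10 below RPMI8226 (SE; limma's adjusted p = 0.00449). RPMI8226 minus U266 was -0.39 (limma's adjusted p = 0.0126), lost without the control array of RPMI8226 (0.0794) or of U266 (0.104).

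Both ribonucleotide reductase genes were lowest in RPMI8226. RRM1, the large subunit gene, stood at 8.21 with mimic and 8.13 with control in RPMI8226, 9.16 and 9.16 in KMS11 and 8.75 and 8.81 in U266. RPMI8226 was lower than KMS11 by 0.99 ± 0.08 log2 units (SE), or 1.99-fold (limma's adjusted p = 0.000167), and lower than U266 by 0.61 ± 0.08 (limma's adjusted p = 0.00111). KMS11 exceeded U266 by 0.38 (limma's adjusted p = 0.00852), a call lost without the KMS11 control array (0.0559) or the U266 mimic array (0.0616). RRM2, the small subunit gene that limits the enzyme in S phase, stood at 8.45 and 8.34 in RPMI8226, 8.93 and 9.01 in KMS11 and 9.56 and 9.44 in U266. No lines overlapped. RPMI8226 was lower than U266 by 1.11 ± 0.09, or 2.15-fold, and lower than KMS11 by 0.58 ± 0.09 (SE; limma's adjusted p = 0.000138 and 0.00212), and KMS11 was lower than U266 by 0.53 ± 0.09 (limma's adjusted p = 0.00318).

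Set beside their octamers, the genes printed above varied as follows. MCM6, with 4 octamers in its window, had a range of 0.31, and PCNA, with 1, had 0.54. GINS2 and CDT1, with 1 each, had ranges of 1.40, and CDC7, with 2, had 0.85. CDC45, with no exact octamer in its 3 windows, had 1.58. These genes are a selection, and other genes did not keep to an order by octamer count. MCM10, also with no exact octamer, had a range of 0.29. GINS1 and MCM8, with 1 each, had 0.15 and 1.36. This is a description of 1 motif in short windows and was not tested.

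Partner genes of replication that the rule does not cover were taken from 4 lists of fork and checkpoint, nucleotide supply, chromatin assembly, and S phase cyclin and E2F genes. Of their 74 symbols 55 were named and all 55 were tested. With the mimic 0 of the 55 passed, against 0% of all tested genes, with 32 above 0 and 23 below in mean change and a median of 0.0064. The F test over lines passed for 52 of 55, against 82.4% of tested genes. RPMI8226 was lower than both other lines for 24, against 21.7% of tested genes, and higher than both for 7, against 17.6%.

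In the S phase cyclin and E2F list, 7 of 18 genes were lowest in RPMI8226 and 3 highest there, against 21.7% and 17.6% of tested genes. KMS11 was highest for 7 and lowest for 0, against 19.2% and 14.4%, and U266 was highest for 1 and lowest for 4, against 18.6% and 18.9%. CCNE2, which encodes cyclin E2 of the G1 to S transition, stood at 6.28 with mimic and 6.25 with control in RPMI8226, 8.82 and 8.66 in KMS11 and 8.51 and 8.67 in U266. RPMI8226 was lower by 2.47 ± 0.10 than KMS11, or 5.54-fold, and by 2.32 ± 0.10 than U266, or 5.00-fold (SE; limma's adjusted p = 1.47e-05 and 1.49e-05). MYBL2, a transcription factor gene of proliferating cells, stood at 8.33 and 8.22 in RPMI8226, 10.72 and 10.68 in KMS11 and 10.28 and 10.25 in U266, so that RPMI8226 was lower by 2.43 ± 0.08 and 1.99 ± 0.08 (SE; limma's adjusted p = 6.41e-06 and 1e-05).

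RB1, which encodes the restraint on E2F, was highest in RPMI8226 and lowest in U266. Any link of its level to the other genes was not tested. RB1 stood at 9.55 with mimic and 9.38 with control in RPMI8226, 8.42 and 8.44 in KMS11 and 5.95 and 5.98 in U266. RPMI8226 exceeded U266 by 3.4997 ± 0.09 log2 units (SE), or 11.3-fold (limma's adjusted p = 2.36e-06), and KMS11 by 1.04 ± 0.09 (limma's adjusted p = 0.000199). In this list the widest mean change with mimic was that of TFDP2, an E2F partner gene, 0.19 ± 0.19 (SD of 3 lines; limma's adjusted p = 0.911).

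Fork and checkpoint genes were lowest in RPMI8226 for 10 of 23 and highest there for 2, against 21.7% and 17.6% of tested genes. KMS11 was highest for 6 and lowest for 4, against 19.2% and 14.4%, and U266 was highest for 5 and lowest for 5, against 18.6% and 18.9%. CLSPN, the gene of the checkpoint adaptor claspin, stood at 6.82 and 6.78 in RPMI8226, 8.02 and 8.04 in KMS11 and 8.29 and 8.34 in U266 (mimic, then control). TOP2A, the gene of the topoisomerase that untangles replicated DNA, stood at 9.33 and 9.22 in RPMI8226, 10.64 and 10.85 in KMS11 and 10.50 and 10.47 in U266. DSCC1, a subunit gene of an alternative clamp loader, was lowest in RPMI8226 and highest in U266, with RPMI8226 minus U266 at -1.52 ± 0.10 (SE; limma's adjusted p = 5.89e-05). MCMBP, whose product binds MCM subunits, had the widest mean change with mimic in this list, -0.12 ± 0.06 (SD of 3 lines; limma's adjusted p = 0.917).

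Nucleotide supply genes did not share 1 order. Of 8 nucleotide genes 3 were lowest in RPMI8226 and 2 highest there, against 21.7% and 17.6% of tested genes. TYMS, the thymidylate synthase gene, was lowest in RPMI8226, 1.54 ± 0.08 below U266 and 1.03 ± 0.08 below KMS11 (SE; limma's adjusted p = 2.98e-05 and 0.000153). SAMHD1, whose product degrades deoxynucleotides, was also lowest in RPMI8226, by 1.44 ± 0.08 against KMS11 (SE; limma's adjusted p = 4.13e-05). CTPS1, a CTP synthase gene, was highest there, by 1.298 ± 0.10 over KMS11 (SE; limma's adjusted p = 0.000113). DUT, the dUTPase gene, had the widest mean change with mimic, 0.16 ± 0.26 (SD of 3 lines; limma's adjusted p = 0.917).

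Of 6 chromatin assembly genes 4 were lowest in RPMI8226 and 0 highest, against 21.7% and 17.6% of tested genes. The histone chaperone genes ASF1A and ASF1B were lower there than in KMS11 by 1.503 ± 0.08 and 1.11 ± 0.11 (SE; limma's adjusted p = 3.69e-05 and 0.000288). SLBP, the histone messenger RNA binding protein gene, was instead highest in U266, with RPMI8226 minus U266 at -0.75 ± 0.11 (SE; limma's adjusted p = 0.00174). UHRF1, a maintenance methylation gene, had the widest mean change with mimic, 0.05 ± 0.24 (SD of 3 lines; limma's adjusted p = 0.967).

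**Figure D5:**
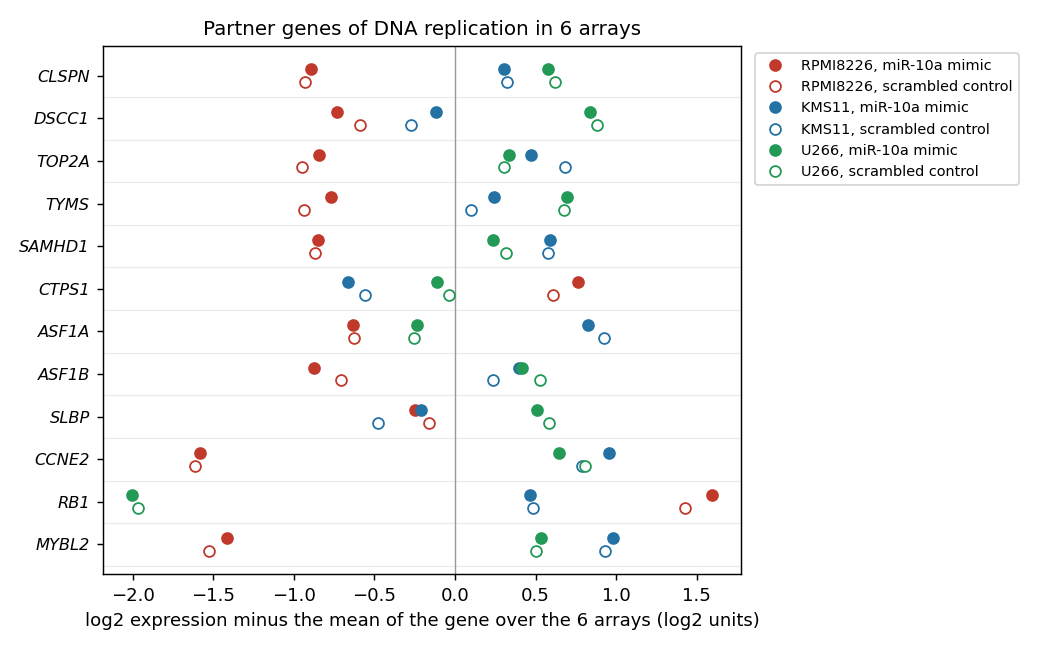
Log2 expression of 12 partner genes in each array, minus the gene's mean over the 6 arrays (x axis, log2 units), with filled circles for mimic and open circles for scrambled control. The RPMI8226 arrays lie left of the other 4 for CCNE2, MYBL2, CLSPN and TYMS and right of them for RB1 and CTPS1; RB1 is lowest in U266, at 5.95 and 5.98 before centring.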

How the data were processed

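The authors deposited log2 expression values for 53617 probe sets in 6 arrays. Per the submitters' processing notes, the software was Affymetrix Expression Console 1.3.0. The sources used here do not give the background correction, normalization or genome build, so whether arrays were centred against one another is unknown, and no detection calls were used. The platform annotation covered 16098 probe sets. Those with 1 symbol gave 14884 genes, and the 22 genes had 23 probe sets. The probe set with the highest mean was used per gene. Genes at or above the median mean, 4.70, were tested (7442 genes).

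Fits used limma 3.58.1 in R 4.3.3 (lmFit, then eBayes with no trend), with cell line and treatment as terms. The same fit gave the mimic effect, the F test and pairwise contrasts of lines. P-values were two-sided and adjusted by Benjamini-Hochberg over all tested genes. There were 2 residual degrees of freedom. A term for 1 line's own mimic effect leaves 1. The cell line pairs the arrays: deviations of a line's arrays from their treatment means correlated at 0.967 to 0.970 across genes. P-values measure how unevenly the mimic and control arrays differed across lines, a spread that may be technical, and the number of arrays limits precision. For differences between lines, the mimic and control arrays of a line stood in for replicates. The spread between cultures of a line treated alike was therefore not measured. No 2 arrays held identical values (0 pairs). The scripts were tested on simulated data.

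The members and lists were chosen with earlier results of these data known. All members may be named. Partner genes are the 3 with the widest range of line means per list, among those passing the F test, and the 1 with the widest mean mimic change. Alternatives were no filter, the upper 25% of genes, centring, quantile normalization, probe set means, a variance trend, no line block, no treatment term, and leaving out lines or arrays.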

Additional observations from a re-analysis of the deposited data

How the results depend on the processing

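The mimic called 0 of all tested genes and 0 of the 22 replication genes under every alternative run, with 403 genes at an unadjusted p under 0.05 with the line as a block and 2 without it. The tests of 1 line's mimic effect against the others called 15 genes for KMS11 and 28 for U266 with a variance trend, and 0 otherwise, with none of the 22 among them. With the stricter filter, 3721 genes were tested rather than 7442. Of the 3721, lines differed for 2933 (RPMI8226 and KMS11), 2899 (RPMI8226 and U266) and 2852 (KMS11 and U266), and for 3474 in the F test. Of the 7442 they differed for 4838, 5017, 4748 and 6135, so the lower counts are out of fewer genes. The count of 9 genes lowest in RPMI8226 was 6 to 9 over all alternatives. The 6 came with the stricter filter, which tested 19 of the 22 genes and left out MCM9, GINS2 and GINS4. Probe set means gave 8, with 21 tested and GINS4 left out. With single arrays left out, where a lone array of a line is assumed to vary like the others, that count was 8 to 9, and the genes called between KMS11 and U266 numbered 10 to 15, against 16, and 11 with no filter and all arrays. The 10 came without the KMS11 control or the U266 mimic array. Of the 48 line differences called, 11 results under other settings and 42 with an array left out lost the call, all with the same sign.

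Sign changes touched only uncalled differences, and the cause was not tested. The widest of these in the main fit were 0.13 for KMS11 minus U266 of GINS2 and -0.11 for the mimic change of MCM9. KMS11 minus U266 for MCM8 was 0.017 with array medians centred and 0.019 after quantile normalization, and RPMI8226 minus U266 for GINS1 was -0.0059 with medians centred. The mimic change of CDC45 was 0.021 after quantile normalization and that of RRM1 -0.0012 with medians centred. With single arrays left out, RPMI8226 minus U266 ranged over -0.00092 to 0.16 for MCM5, -0.021 to 0.10 for MCM10 and -0.079 to 0.10 for GINS1. KMS11 minus U266 ranged over -0.023 to 0.083 for MCM3, -0.12 to 0.10 for MCM8 and -0.024 to 0.28 for GINS2. With a line left out, the mimic change ranged over -0.074 to 0.087 for CDC6, -0.0096 to 0.048 for MCM3, -0.12 to 0.015 for MCM5, -0.045 to 0.014 for MCM6, -0.093 to 0.043 for MCM8 and -0.22 to 0.050 for MCM9. It ranged over -0.0036 to 0.041 for CDC7, -0.071 to 0.026 for DBF4, -0.088 to 0.072 for CDC45, -0.085 to 0.021 for GINS1, -0.014 to 0.062 for PCNA and -0.032 to 0.040 for RRM1.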
